A study of Arabidopsis thaliana with 12 samples.

Results

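The transcripts described here encode 9 precursors of secreted signal peptides of Arabidopsis thaliana: IDL6 (AT5G05300) and IDL7 (AT3G10930) of the IDA-like family, the 3 PIP precursors AT4G28460, AT4G37290 and AT2G23270, RALF23 (AT3G16570), RALF33 (AT4G15800), PSK2 (AT2G22860) and PSK4 (AT3G49780). They were taken by gene identifier from 33197 identifiers of the expression table, and all 9 passed the filter on low values (1 FPKM or more in 2 or more libraries), as did 20753 genes in all. RNA came from whole Col-0 seedlings, 10 days old, kept in water overnight and then given flg22, a flagellin fragment sensed by the receptor FLS2, for 30 min, or left without it. The groups, of 2 libraries each, were asr3-1 with flg22, OX9 with flg22, wild type (WT) with flg22, and asr3-1, OX9 and WT without flg22. The design text states 100 nM flg22, whereas the treatment protocol in the labels states 100 mM, and the sources do not settle which holds. The mutant asr3-1 and OX9, a 35S:ASR3-HA line in which a promoter active in most tissues drives a tagged copy, alter ASR3 (AT2G33550), a trihelix transcription factor that represses transcription. Each line stands for 1 allele or 1 transformant, each library pools the RNA of 2 biological replicates, and the libraries of a group come from independent repeats of the experiment. Unless another spread is named, a p-value below measures the spread between pools. Fits averaged over genotypes count the 3 libraries of a repeat and treatment as separate, although libraries of the same repeat deviated together. Their p-values thus take only partial account of the spread in response between the 2 repeats.

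Small secreted peptides carry signals between plant cells. They are made as precursors with a signal sequence, cut by subtilases in the secretory path or the cell wall, and in the case of phytosulfokine also sulfated by the enzyme TPST. The PIP peptides bind the receptor kinase RLK7 and add to the immune response that flg22 starts. Peptides of the IDA family bind HAESA (HAE) and its relatives, which are best known for organ shedding, and IDL6 and IDL7 have been tied to responses to stress and pathogens. RALF23 and RALF33 bind FERONIA (FER) with the anchored protein LLG1 and, once cut by the site 1 protease, dampen the assembly of the FLS2 and BAK1 complex. Phytosulfokine (PSK), a sulfated pentapeptide, binds PSKR1 and PSKR2, promotes growth and is known to lower responses to flg22.

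The coding bases of the peptide ends show what the members of each family share. They were read from the RefSeq genome TAIR10.1, since the submitters' files hold no coordinates. In the IDA-like and PIP genes, each with 1 exon, the capitals mark the codons for serine, glycine, proline and serine.
IDL6, chr5:1570120-1570149, minus strand: gttccggcgTCTGGACCCAGCaagagaatc
IDL7, chr3:3420484-3420513, minus strand: cgtccggggTCTGGACCCAGCaagaaaact
AT4G28460, chr4:14066260-14066289, plus strand: cgtttggcgTCGGGTCCAAGTccaagaggt
AT4G37290, inner site, chr4:17550010-17550039, minus strand: atcaaagacTCAGGTCCAAGTccaggcgag
AT4G37290, end site, chr4:17549941-17549970, minus strand: gttaagcacTCAGGTCCAAGCccaagcgga
AT2G23270, inner site, chr2:9903458-9903487, plus strand: attaaggagTCGGGTCCTAGCtctggtggt
AT2G23270, end site, chr2:9903530-9903559, plus strand: ggtaagcatTCAGGTCCCAGCacgagtgga

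The IDL6 and IDL7 sites use the same 4 codons, while the 5 PIP sites differ from them and among themselves in synonymous bases. AT4G37290 and AT2G23270 each carry an inner and an end copy and their proteins are 68.6% identical, whereas AT4G28460 carries 1 copy and is 26.7% and 25% identical to these. The IDL7 site lies in a reading frame other than the one RefSeq annotates for that gene. In the RALF genes the capitals below mark the codons of the site 1 protease motif, arginine, arginine, isoleucine and leucine, and in the PSK genes those of the mature pentapeptide, tyrosine, isoleucine, tyrosine, threonine and glutamine.
RALF23, chr3:5644991-5645020, plus strand: gagatcaacCGGCGCATATTAgctacgagg
RALF33, chr4:8985095-8985124, plus strand: gagatcaacAGGCGTATTTTAgcaacaacg
PSK2, chr2:9738036-9738068, plus strand: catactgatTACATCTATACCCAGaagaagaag
PSK4, chr3:18466216-18466248, plus strand: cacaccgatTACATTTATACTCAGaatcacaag

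Both RALF precursors, 138 and 116 residues long and 65.2% identical, thus hold the protease motif. The PSK2 and PSK4 precursors, of 87 and 79 residues, are 46.1% identical over their whole length and code for the same pentapeptide. The IDL6 gene (chr5:1569855-1570609, minus strand) overlaps at its 3′ end the expansin gene EXPA2 on the other strand, which lay at 0 to 0.157 FPKM in the 12 libraries, and RALF33 (chr4:8984787-8985995, plus strand) overlaps the noncoding gene AT4G06335, which was not analysed here. The sources do not state whether reads kept their strand.

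The libraries were checked before the members were read. ASR3 lay at 384 to 590 FPKM in OX9, 2.5 to 6.58 FPKM in asr3-1 and 6.24 to 9.59 FPKM in WT, so the mutant still had reads of the gene, and its highest library lay above the lowest of WT. Within each repeat and treatment asr3-1 lay below WT. Without flg22 the values were 6.58 against 9.59 FPKM in repeat 1 and 2.5 against 6.24 in repeat 2. With flg22 they were 2.53 against 8.53 and 3.44 against 6.34. FRK1, a kinase gene used as a marker of flg22 treatment, lay at 5.94 to 71.4 FPKM with flg22 and 0.438 to 4.9 FPKM without. No read counts were given, so depth is unknown and the values carry no counting interval. In each library 19137 to 19621 genes reached 1 FPKM. The 4 markers of green tissue were high in all 12 libraries and the 5 root markers summed to 29 to 44.4 FPKM. In bulk RNA of this kind, fewer cells of a type and less RNA per cell cannot be told apart.

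The first question was which of the peptide genes flg22 changed within 30 min. With flg22 the IDA-like and PIP genes lay at 6.79 to 423 FPKM in the 3 genotypes, against 0 to 11.3 FPKM without it. On the 12-library fit over 20753 genes (limma on log2(FPKM + 1), Benjamini-Hochberg adjusted p under 0.05), averaged over the genotypes, 5 of the 9 genes rose and 0 fell. Of all genes tested 3.83% rose and 0.265% fell. The 5 were IDL6, IDL7 and the 3 PIP genes. RALF23, RALF33, PSK2 and PSK4 did not pass this test. Of these PSK2 had a median of 4.95 FPKM without flg22, while RALF23, RALF33 and PSK4 had medians of 132, 125 and 162 FPKM.

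**Figure D1:**
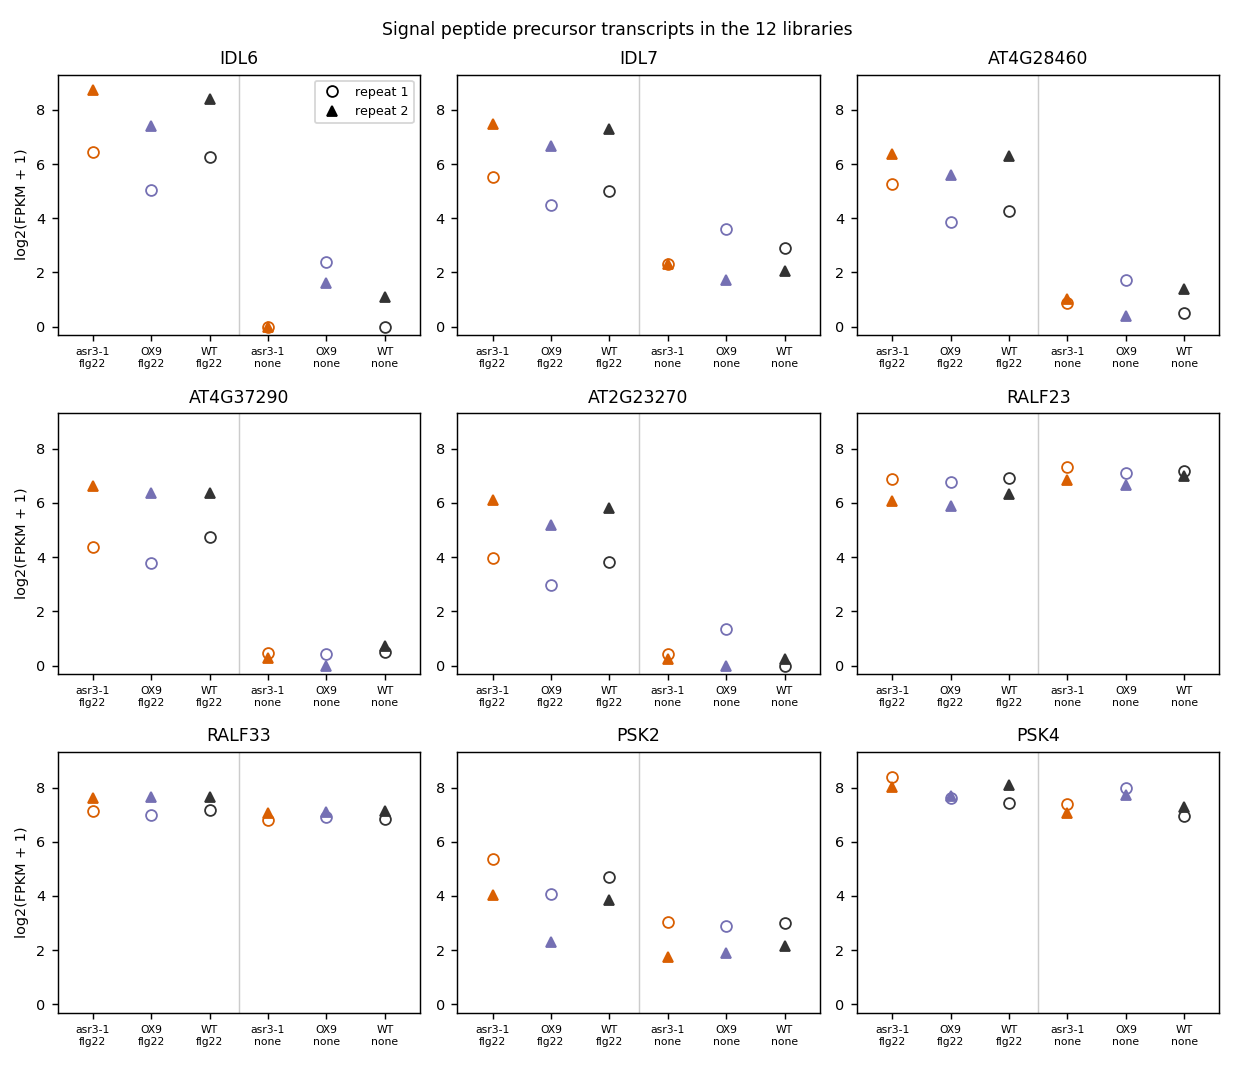
FPKM of the 9 peptide genes on a log2(FPKM + 1) axis, with the 3 flg22 groups left and the 3 groups without flg22 right of the line; open circles are repeat 1 and filled triangles repeat 2, and 1 symbol is 1 library. In IDL6, IDL7 and the 3 PIP genes all 6 libraries with flg22 lie above all 6 without, and repeat 2 lies above repeat 1 with flg22.

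IDL6 showed the widest change of the 9. In asr3-1 it had 87.1 and 423 FPKM with flg22 in repeats 1 and 2, against 0 and 0 without. In OX9 it had 32.2 and 168 FPKM with flg22, against 4.29 and 2.03 without, and in WT 76.4 and 338 FPKM with flg22, against 0 and 1.11 without. Every library with flg22 was thus above every library without it, and the OX9 libraries were the lowest of those with flg22 and the highest of those without in their repeat. The averaged log2 difference was 6.21 (SE 0.59, adjusted p = 0.0029, limma), rank 7 among all genes tested. As 3 libraries were listed at 0, its size depends on the value of 1 added before taking logs.

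IDL7 was above 0 in every library without flg22. With flg22 it stood at 45.2 and 176 FPKM in asr3-1, 21.4 and 100 in OX9 and 30.7 and 156 in WT. Without flg22 the values were 4.01 and 3.93 FPKM in asr3-1, 11.3 and 2.29 in OX9 and 6.46 and 3.19 in WT. The 6 libraries with flg22 did not overlap with the 6 without, although the ratio in OX9 was 43.8 in repeat 2 and 1.89 in repeat 1. Averaged over genotypes the log2 difference was 3.58 (SE 0.61, adjusted p = 0.019), and the call rested on the full set of libraries: with 1 library without flg22 left out, any but that of OX9 in repeat 1, the adjusted p was 0.0519 to 0.0715.

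Among the PIP genes, AT4G37290 stayed below 1 FPKM in each library without flg22. It had 19.6 and 96.6 FPKM with flg22, against 0.383 and 0.224 without, in asr3-1. It had 12.7 and 81.1 FPKM with flg22, against 0.35 and 0 without, in OX9, and 25.6 and 82.3 FPKM with flg22, against 0.406 and 0.666 without, in WT. No library with flg22 lay under 12.7 FPKM, so the groups did not overlap, and the averaged log2 difference was 4.97 (SE 0.56, adjusted p = 0.0042).

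AT4G28460, the PIP gene with the single motif copy, had 37.2 and 82.3 FPKM with flg22 and 0.837 and 1.01 without in asr3-1. The pairs were 13.4 and 47.9 with flg22 and 2.31 and 0.327 without in OX9, and 18.4 and 77.8 with flg22 and 0.432 and 1.61 without in WT. Ratios within a pair of libraries ran from 5.78 in OX9 of repeat 1 to 147 in OX9 of repeat 2. They divide by 2.31 and 0.327 FPKM, single low values of unknown error, so their size is uncertain. The averaged log2 difference was 4.29 (SE 0.48, limma, adjusted p = 0.0042).

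AT2G23270, the closest relative of AT4G37290 among the 9, was the lowest of the 5 genes in each library with flg22. It had 14.8 and 67.2 FPKM with flg22 and 0.343 and 0.18 without in asr3-1. In OX9 it had 6.79 and 35.5 FPKM with flg22 and 1.57 and 0 without, and in WT 13.1 and 55.5 FPKM with flg22 and 0 and 0.176 without. The groups again did not overlap, and the averaged log2 difference was 4.27 (SE 0.57, adjusted p = 0.0081). For the 3 PIP genes the size of the log2 difference depends on the value added before logs: with 5 in place of 1 it was 2.85 for AT4G28460, 3.13 for AT4G37290 and 2.49 for AT2G23270, all still called.

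Complete separation, with all 6 flg22 libraries above all 6 others, was seen in these 5 of the 9 genes and in 6.19% of all genes tested. In the 6 pairs of libraries that share genotype and repeat, 7 of the 9 genes were higher with flg22 in every pair, against 12.5% of all genes. The 7 are the 5 above with PSK2 and RALF33. RALF23 was lower with flg22 in every pair, as were 10.8% of all genes.

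**Figure D2:**
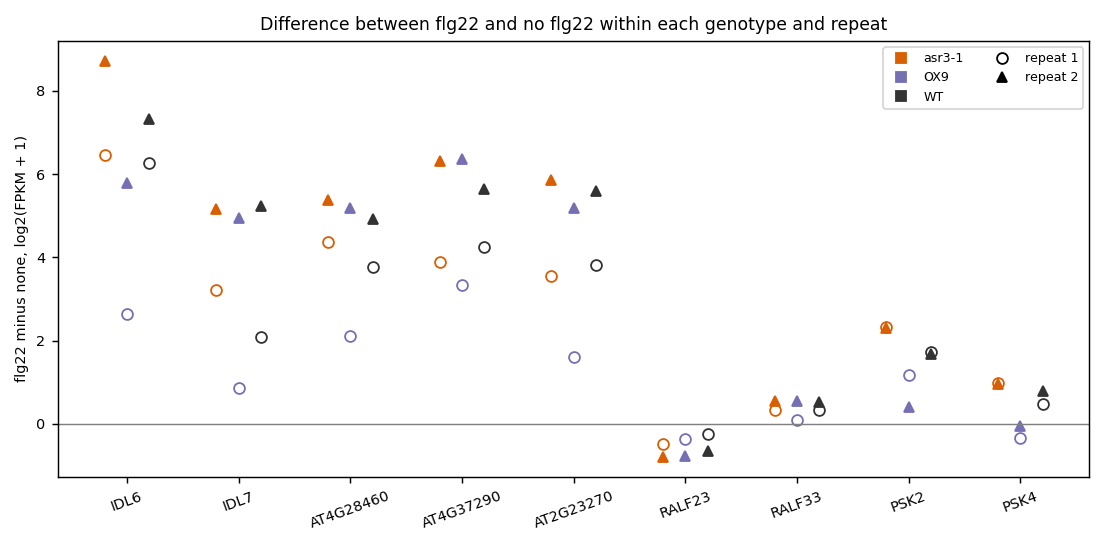
Difference between the library with flg22 and that without, in log2(FPKM + 1), for each gene, genotype (colour) and repeat (open circle repeat 1, filled triangle repeat 2). IDL6, IDL7 and the 3 PIP genes lie between 0.86 and 8.73, RALF23 lies between -0.79 and -0.23, and PSK4 lies on both sides of 0.

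RALF23, whose mature peptide restrains the FLS2 complex, had 116 and 65.6 FPKM with flg22 and 160 and 114 without in asr3-1. In OX9 it had 108 and 57.9 FPKM with flg22 and 138 and 99.7 without. In WT it had 121 and 80 FPKM with flg22 and 142 and 127 without. Each library with flg22 was below its partner, by ratios of 0.574 to 0.851, while the 6 against 6 overlapped because repeat 2 lay below repeat 1 in both conditions. Without a block, the averaged log2 difference was -0.54 (SE 0.23, adjusted p = 0.31). With the repeat as a block in the model the SE was 0.10 and RALF23 fell with flg22 (limma, adjusted p = 0.011). The block takes out the shift between repeats, and the genotypes then serve as replicates. Its error takes only partial account of differences in response between the repeats, here and in the block results below. The mean log2 response of RALF23 was -0.74 in repeat 2 and -0.35 in repeat 1.

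RALF33 stood the other way. It had 138 and 195 FPKM with flg22 and 110 and 133 without in asr3-1, 125 and 199 with flg22 and 118 and 135 without in OX9, and 142 and 202 with flg22 and 113 and 140 without in WT. All 6 ratios were above 1, from 1.07 to 1.47, and here repeat 2 lay above repeat 1 in both conditions. The averaged log2 difference was 0.40 (SE 0.17, adjusted p = 0.33), and with the block RALF33 rose (SE 0.07, adjusted p = 0.011). Its mean log2 response was 0.54 in repeat 2 and 0.25 in repeat 1. Across the 12 libraries the 2 RALF genes ran against each other, with Pearson's r of -0.927 on log2(FPKM + 1). The median RALF33 level was 168 FPKM with flg22 and 125 without, and that of RALF23 was 94.2 FPKM with flg22 and 132 without. With flg22 the ranges of the 2 genes did not overlap, at 125 to 202 FPKM for RALF33 and 57.9 to 121 for RALF23, and without flg22 they did, at 110 to 140 for RALF33 and 99.7 to 160 for RALF23.

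PSK2 encodes 1 of the precursors of phytosulfokine. It had 40 and 15.6 FPKM with flg22 and 7.13 and 2.34 without in asr3-1, 16 and 3.9 with flg22 and 6.47 and 2.7 without in OX9, and 25.3 and 13.3 with flg22 and 6.99 and 3.42 without in WT. All 6 pairs were higher with flg22, and unlike the 5 genes above PSK2 was lower in repeat 2 than in repeat 1 in all 6 groups. The averaged log2 difference of 1.61 did not pass the test without the block (SE 0.44, adjusted p = 0.096), and PSK2 rose in the fit with it (SE 0.13, adjusted p = 0.0011).

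PSK4, with the highest mean of the 9 over the 12 libraries (206 FPKM), had 332 and 259 FPKM with flg22 and 168 and 133 without in asr3-1. In WT it had 170 and 271 FPKM with flg22 and 122 and 156 without. In OX9 it had 197 and 205 FPKM with flg22 and 249 and 211 without, so both OX9 pairs were lower with flg22 while the other 4 pairs were higher. The averaged log2 difference was 0.47 (SE 0.15) and did not pass the test, with adjusted p = 0.17 and, with the block, 0.072.

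With the block the count over the 9 genes was 7 higher and 1 lower, and of all genes 10.1% were higher and 5.69% lower. Within a single genotype, where 2 libraries stand against 2, fewer genes passed. In asr3-1 IDL6 rose (adjusted p = 0.043), 1 of the 9 against 0.193% of all genes. That call was lost without any 1 of 8 of the 12 libraries, the 4 of asr3-1 among them (adjusted p = 0.0837 to 0.326), and with the 4 libraries of asr3-1 alone (adjusted p = 0.303), as well as with 5 added before logs (0.107) and with no filter on low values (0.0623). With the block IDL6 (adjusted p = 0.012), PSK2 (0.0083), AT4G28460 (0.035) and AT4G37290 (0.037) rose in asr3-1, 4 of the 9 against 1.59% of all genes. In WT 0 of the 9 passed in limma, against 0.101% of all genes higher. At an unadjusted p under 0.05 there were 6 of the 9, and 1407 of all 20753 genes. With the block IDL6 (adjusted p = 0.027) and PSK2 (0.032) rose in WT, 2 of the 9 against 0.52% of all genes. In OX9 0 of the 9 passed in limma (lowest adjusted p = 0.4, and 0.13 with the block). Of all genes 0% were higher without the block and 0.0482% with it. Without the block an unadjusted p under 0.05 was found for 5 of the 9 and for 949 of all 20753 genes. Differences between these counts are not differences between genotypes, which were tested directly as follows.

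The second question was whether loss or excess of ASR3 changed the peptide genes. With flg22, OX9 lay below WT in both repeats in 8 of the 9 genes, all but PSK4. The same was true of 29.3% of all genes and of 69.9% of the 795 genes that flg22 raised in the averaged fit. Of the 8, RALF23, RALF33 and PSK2 are not among the 795. IDL6 had ratios of OX9 over WT of 0.422 and 0.497 in repeats 1 and 2, PSK2 of 0.63 and 0.293, AT2G23270 of 0.516 and 0.639, IDL7 of 0.695 and 0.641, and AT4G28460 of 0.727 and 0.615. For AT4G37290 the ratios were 0.496 and 0.985, and for the RALF genes they ran from 0.723 to 0.985. In limma 0 of the 9 passed, with an adjusted p of 1 for each, against 0.00482% of all genes. At an unadjusted p under 0.05 there were 0 of the 9, and 164 of all 20753 genes. The fitted log2 differences were -1.11 (SE 1.03) for IDL6 and -1.09 (SE 0.76) for PSK2, the widest of the 9, while that of RALF33 was -0.10 (SE 0.30) and turned to 0.02307 after quantile normalization. With the block PSK2 had an unadjusted p of 0.0015 and an adjusted p of 0.97.

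**Figure D3:**
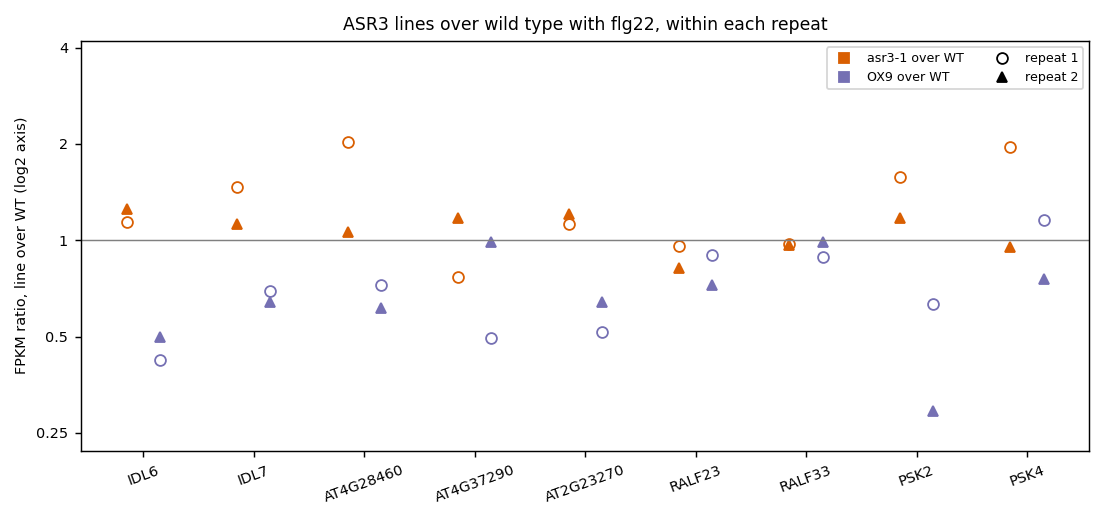
Ratio of FPKM with flg22 in asr3-1 over WT and in OX9 over WT, on a log2 axis, within repeat 1 (open circles) and repeat 2 (filled triangles). The OX9 ratios lie under 1 in both repeats for every gene but PSK4, and the asr3-1 ratios of IDL6, IDL7, AT4G28460, AT2G23270 and PSK2 lie above 1.

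With flg22, asr3-1 lay above WT in both repeats in 5 of the 9 genes, against 27.3% of all genes and 55.2% of the 795 raised ones. These were IDL6, with ratios of 1.14 and 1.25, IDL7 with 1.47 and 1.12, AT4G28460 with 2.02 and 1.06, AT2G23270 with 1.12 and 1.21, and PSK2 with 1.58 and 1.17. PSK2 is not among the 795. AT4G37290 lay below WT in repeat 1 and above it in repeat 2, at 0.765 and 1.17, and the RALF genes lay at 0.819 to 0.975. In this comparison 0 of the 9 passed in limma (adjusted p = 1 for each), against 0% of all genes. An unadjusted p under 0.05 was found for 0 of the 9 and for 166 of all 20753 genes. The comparisons of asr3-1 and of OX9 share their WT libraries.

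Without flg22 0 of the 9 passed in limma between asr3-1 and WT, against 0% of all genes, and 0 between OX9 and WT, against 0.00964%. At an unadjusted p under 0.05 there were 0 of the 9 and 81 of all 20753 genes between asr3-1 and WT. Between OX9 and WT there were 1 of the 9 and 173 of all genes. The 1 was PSK4, with 249 and 211 FPKM in OX9 and 122 and 156 in WT (log2 0.73, SE 0.27, adjusted p = 1). IDL6 was also detected in both OX9 libraries, at 4.29 and 2.03 FPKM, and listed at 0 and 1.11 FPKM in WT and at 0 in both asr3-1 libraries.

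The size of the flg22 response was then compared between the lines. For the response of asr3-1 minus that of WT 0 of the 9 passed in limma, against 0% of all genes. For the response of OX9 minus that of WT 0 passed as well, again against 0%. At an unadjusted p under 0.05 there were 0 of the 9 in both, and in that order 80 and 95 of all 20753 genes. PSK4 had pair differences in log2 of -0.34 and -0.04 in OX9 and of 0.47 and 0.79 in WT, a difference of response of -0.82 (SE 0.38, adjusted p = 1).

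The third comparison was between the repeats. The mean log2 response over the 3 genotypes was larger in repeat 2 than in repeat 1 for each of the 5 induced genes: 7.28 in repeat 2 and 5.13 in repeat 1 for IDL6, and in the same order 5.11 and 2.05 for IDL7, 5.16 and 3.42 for AT4G28460, 6.11 and 3.83 for AT4G37290, and 5.54 and 2.99 for AT2G23270. With the genotypes serving as replicates, the difference passed for IDL7 (3.06, SE 0.55, adjusted p = 0.0091), AT4G37290 (2.28, SE 0.25, adjusted p = 3e-04) and AT2G23270 (2.55, SE 0.54, adjusted p = 0.017). It did not pass for IDL6 (2.16, SE 1.19, adjusted p = 0.36) or AT4G28460 (1.75, SE 0.61, adjusted p = 0.12, and 0.0339 with 5 added before logs). So 3 of the 9 were higher and 0 lower, against 8.13% of all genes higher and 3.13% lower, and 91.7% of the 795 raised genes lay higher in repeat 2. The call for AT2G23270 was lost without either repeat 2 library of asr3-1 (adjusted p = 0.0529 and 0.0526) and with 0.1 added before logs (0.182).

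This p-value measures the spread between genotypes within 1 pair of experiments. Repeat also moved with the make-up of the libraries: in repeat 2 the metallothionein gene AT1G07600 held 10.17 to 16.07% of the FPKM sum, while in repeat 1 the highest gene held 1.6 to 4.95%. The part of this in the result was not tested. For the other 4 genes the difference between repeats did not pass. The mean responses of PSK2 were 1.47 in repeat 2 and 1.75 in repeat 1 (difference -0.28, SE 0.48, adjusted p = 0.81), and those of PSK4 0.57 and 0.37 (difference 0.20, SE 0.44, adjusted p = 0.85). For RALF23 they were -0.74 and -0.35 (adjusted p = 0.081, and 0.00939 after quantile normalization) and for RALF33 0.54 and 0.25 (adjusted p = 0.072). The treatment marker FRK1 ran opposite to the 5 induced genes in all 3 genotypes, with a smaller log2 response in repeat 2. Its responses in repeats 2 and 1 were 2.01 and 4.89 in asr3-1, 0.23 and 3.53 in OX9, and 2.54 and 3.50 in WT. The difference between repeats for FRK1 was -2.38 and did not pass the test (limma, adjusted p = 0.1).

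Across the 12 libraries the 5 induced genes followed each other closely, with Pearson's r of 0.958 to 0.991 on log2(FPKM + 1) for their 10 pairs. PSK2 and PSK4 correlated with r of 0.543, and PSK2 with the 5 at 0.590 to 0.639. The libraries share treatment and repeat, so these coefficients describe the samples and carry no p. The genes with the most similar pattern over the 12 libraries were PER4 (a peroxidase, r = 0.991), RBP47B (0.990) and CML42 (a calmodulin-like protein, 0.988) for IDL6, and WRKY53 (a transcription factor of the immune response, 0.993), AT1G23710 (0.992) and STN1 (0.990) for IDL7. For AT4G28460 they were AT1G26380 (0.995), AT1G08050 (0.993) and AT5G11140 (0.992), and for AT4G37290 AT1G07160 (0.996), AT5G39670 (0.995) and again AT5G11140 (0.995). AT2G23270 was nearest to AT1G58420 (0.997), AT2G22880 (0.997) and CNI1 (0.996). RALF23 was nearest to AT3G17100 (0.979), CRR6 (0.978) and AT1G19000 (0.975), and RALF33 to AT1G53430, AT3G54100 and AT3G53990 (0.986 each). The values were lower for PSK2, nearest to GLIP5 (0.972), AtIPCS1 (0.969) and AT1G28390 (0.966), and lowest for PSK4, nearest to AT5G44380 (0.922), AT4G26060 (0.916) and AT2G31810 (0.895).

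The receptors of these peptides were read from a list of 13 receptors and coreceptors. Averaged over genotypes 2 of 13 rose and 0 fell in limma, against 3.83% of all genes higher and 0.265% lower, and the median log2 difference was 0.46, against -0.03 for all genes. RLK7, the receptor of the PIP peptides, had 68.8 to 145 FPKM with flg22 (median 96.8) and 30.3 to 40.8 without (median 35.7). It rose by a log2 difference of 1.41 (SE 0.23, adjusted p = 0.017). SERK4, a coreceptor close to BAK1, had 23 to 115 FPKM with flg22 (median 56.2) and 5.13 to 10 without (median 8.37), a log2 difference of 2.44 (SE 0.52, adjusted p = 0.04). In both genes the libraries with and without flg22 did not overlap. The call for RLK7 was lost without any 1 of 4 libraries, the 3 of repeat 2 without flg22 and that of WT with flg22 in repeat 2 (adjusted p = 0.0502 to 0.0672), and that for SERK4 without any 1 of 9 libraries (adjusted p = 0.0816 to 0.114). The SERK4 call was also lost with 5 added before logs (0.0607) and with no filter on low values (0.0573).

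With the block 6 of the 13 rose and 1 fell, against 10.1% of all genes higher and 5.69% lower, so the single gene that fell is near the share of all genes. The others that rose were BAK1 (35.5 to 108 FPKM with flg22, 22 to 23.8 without, log2 1.35, adjusted p = 0.0096, against 0.053 without the block) and the phytosulfokine receptor PSKR1 (16.8 to 60.4 FPKM with flg22, 7.6 to 12.3 without, log2 1.51, adjusted p = 0.0068, against 0.062). LLG1, the coreceptor of RALF23, rose as well (138 to 292 FPKM with flg22, 121 to 139 without, log2 0.65, adjusted p = 0.042, against 0.21 without the block). So did FER, the receptor of RALF23 (42.7 to 135 with flg22, 33 to 82.5 without, log2 0.46, adjusted p = 0.036, against 0.83 without the block). HSL1, a relative of HAE, fell (18.1 to 19.5 FPKM with flg22, 19 to 32.7 without, log2 -0.38, adjusted p = 0.024, against 0.15 without the block). HAE had 5.74 to 10 FPKM with flg22 and 3.58 to 6.84 without (log2 0.58, adjusted p = 0.11), HSL2 had 2.56 to 3.59 with flg22 and 3.52 to 4.68 without (log2 -0.32, adjusted p = 0.075), and PSKR2 had 3.18 to 4.75 with flg22 and 3.51 to 5.38 without (log2 -0.12, adjusted p = 0.43), all 3 with the block.

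**Figure D4:**
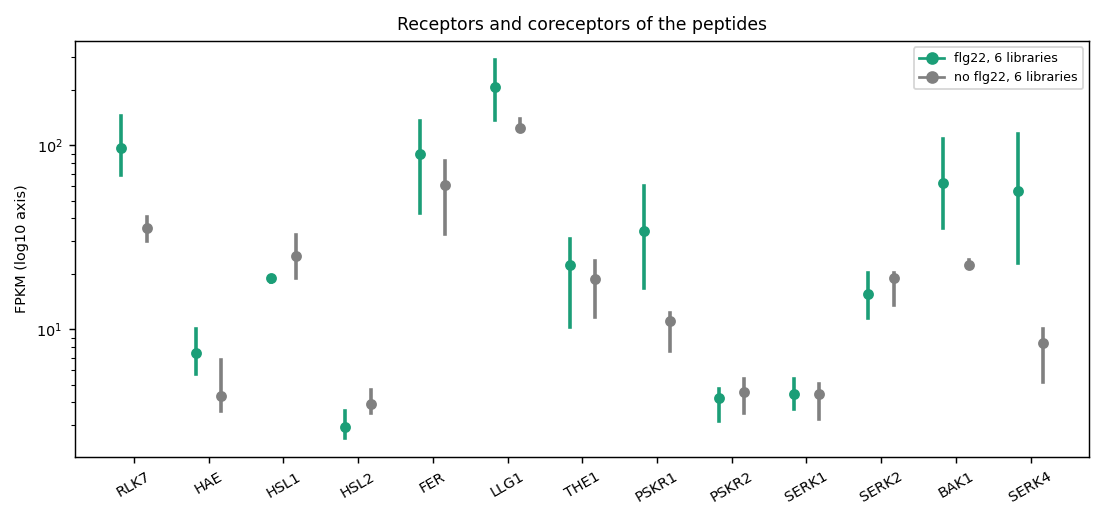
FPKM on a log10 axis of 13 receptors and coreceptors in the 6 libraries with flg22 (green) and the 6 without (grey); points are medians and lines run from the lowest to the highest library. RLK7, PSKR1, BAK1 and SERK4 with flg22 lie wholly above their range without it.

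The response of the receptors was also compared between the repeats. In limma, with the genotypes serving as replicates, it was larger in repeat 2 for 8 of the 13 and smaller for 0, against 8.13% of all genes higher and 3.13% lower. Called or not, the difference was above 0 for 10 of the 13, for 52.5% of all genes and for 91.7% of the 795 genes raised in the averaged fit. The 8 were RLK7 (difference 1.11, adjusted p = 3e-04), SERK4 (1.52, 0.00019), BAK1 (1.16, 0.00058), PSKR1 (1.09, 0.01), HAE (1.05, 0.0023), LLG1 (0.88, 0.00033), SERK1 (0.62, 0.041) and FER (0.54, 0.023). HSL1 (-0.39, adjusted p = 0.08), HSL2 (-0.37, 0.23) and PSKR2 (-0.15, 0.7) had differences below 0. The calls for SERK1 and FER were lost when any 1 of 11 and any 1 of 7 libraries was left out (adjusted p = 0.0596 to 0.115 and 0.0536 to 0.0664), and that for FER also after quantile normalization (0.148). Between each line and WT 0 of the 13 passed with flg22, with or without the block. Of all 20753 genes 0 passed for asr3-1 and 1 for OX9 in both fits.

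Further genes of the same families were read from a list, and their counts lay near the shares of all genes called (3.83% higher and 0.265% lower, and with the block 10.1% higher and 5.69% lower). Of 6 further IDA family genes, 0 passed without the block and 1 with it, IDA, at 1.98 to 6.84 FPKM with flg22 and 0 to 3.15 without (log2 1.23, adjusted p = 0.14, and 0.02 with the block). Of 11 further RALF genes 9 passed the filter on low values, and 0 changed without the block and 1 with it. The 1 was RALF1, at 75.7 to 145 FPKM with flg22 and 60 to 97.1 without (log2 0.44, adjusted p = 0.48, and 0.015 with the block). Of 4 further PSK genes 3 passed the filter, and 0 of these passed the test with or without the block. All 3 lay higher with flg22 (median log2 0.37, against -0.03 for all genes), as did 43.6% of all genes. PSK1 had a log2 difference of 0.57 (adjusted p = 0.29, and 0.068 with the block) and RALFL18 of 0.52 (0.81, and 0.44 with the block). RALFL4, RALFL8 and PSK6 were listed at 0 in every library.

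Of 7 enzymes that release or modify the peptides, 5 passed the filter on low values and the other 2 were not tested. Of the 5, 0 passed the test with or without the block, which is near the shares of all genes given above, and their median log2 difference was -0.12, against -0.03 for all genes. The site 1 protease gene S1P, whose product cuts RALF23, had 4.2 to 6.22 FPKM with flg22 and 4.75 to 8.15 without (log2 -0.16, SE 0.15, adjusted p = 0.8). TPST, which sulfates phytosulfokine, had 9.38 to 13.3 FPKM with flg22 and 10.6 to 12.7 without (log2 -0.08, SE 0.11, adjusted p = 0.95). Of 3 partners of PSKR1, the proton pump genes AHA1 and AHA2 did not pass, and the channel gene CNGC17 rose in the fit with the block (log2 0.45, adjusted p = 0.47 without the block and 0.018 with it).

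The 300 bases before the annotated transcript starts were searched on both strands for motifs bound by factors of the immune and stress response and by trihelix factors. The W box core TTGAC, bound by WRKY factors, was present in 7 of the 9 windows and in 50.4% of 27443 windows of protein-coding genes. At least 2 matches were present in 4 of the 9, in IDL6, AT4G28460, AT2G23270 and RALF33, and in 17.9% of all windows. IDL7 and RALF23 had no match. Of the GT boxes of trihelix factors, GGTAAA was found in AT4G28460 and GGTTAA in PSK4, each present in 17.3% of all windows, and GGTAAT (13.2%) in 0 of the 9. The rapid stress response element CGCGTT was found in RALF33 (3.08% of windows), and the G box CACGTG (7.09%) and the GCC box GCCGCC (2.26%) in 0 of the 9. A match is a match of letters and not a shown binding site.

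**Figure D5:**
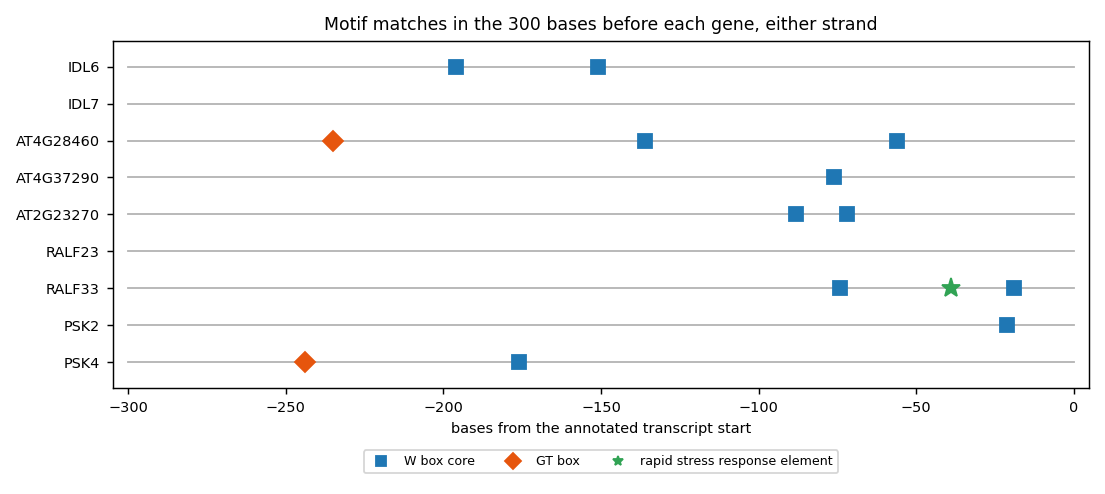
Matches of the W box core, the GT boxes and the rapid stress response element on either strand of the 300 bases before each gene, by distance from the annotated transcript start. The W box core occurs in every gene but IDL7 and RALF23.

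The windows of 4 genes that rose with flg22 follow, since AT4G28460 and AT2G23270 hold 2 W box cores each, AT4G37290 holds 1 and IDL7 none; capitals mark the W box core, written GTCAA where it lies on the other strand, and in AT4G28460 also the GT box, written TTTACC. The sequences are those of RefSeq, build TAIR10.1.
AT4G28460, chr4:14065692-14065991, plus strand: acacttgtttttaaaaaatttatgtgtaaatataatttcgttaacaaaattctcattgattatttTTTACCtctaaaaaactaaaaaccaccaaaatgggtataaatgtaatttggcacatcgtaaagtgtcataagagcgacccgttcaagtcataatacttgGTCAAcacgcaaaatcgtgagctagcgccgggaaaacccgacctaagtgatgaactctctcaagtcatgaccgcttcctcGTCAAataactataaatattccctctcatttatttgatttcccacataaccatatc
AT4G37290, chr4:17550258-17550557, minus strand: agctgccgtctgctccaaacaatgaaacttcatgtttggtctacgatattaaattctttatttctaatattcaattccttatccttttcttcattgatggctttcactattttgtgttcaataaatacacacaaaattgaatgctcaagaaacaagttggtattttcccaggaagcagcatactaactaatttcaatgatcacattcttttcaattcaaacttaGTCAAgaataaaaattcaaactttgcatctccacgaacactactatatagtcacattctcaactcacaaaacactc
AT2G23270, chr2:9902915-9903214, plus strand: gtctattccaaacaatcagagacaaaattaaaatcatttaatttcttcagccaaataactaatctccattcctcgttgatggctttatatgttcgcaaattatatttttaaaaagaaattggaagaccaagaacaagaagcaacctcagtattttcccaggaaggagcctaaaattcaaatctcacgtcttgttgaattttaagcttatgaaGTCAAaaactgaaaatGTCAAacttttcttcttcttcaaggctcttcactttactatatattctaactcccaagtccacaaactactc
IDL7, chr3:3420933-3421232, minus strand: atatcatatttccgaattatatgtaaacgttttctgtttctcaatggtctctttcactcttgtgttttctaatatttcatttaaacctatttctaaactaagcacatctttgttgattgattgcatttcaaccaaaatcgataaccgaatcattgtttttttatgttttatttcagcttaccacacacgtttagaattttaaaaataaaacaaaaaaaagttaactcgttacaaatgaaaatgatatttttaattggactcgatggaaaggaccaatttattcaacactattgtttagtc

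The windows of AT4G37290 and AT2G23270 share a run of 16 bases on the gene strand, gtattttcccaggaag, which begins 141 bases before the start of AT4G37290 and 152 bases before that of AT2G23270. In the other 35 pairs of the 9 windows the longest shared run was 7 to 11 bases. The run was looked for after the sequences had been seen.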

How the data were processed

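RNA sequencing of 12 libraries, 2 for each of 6 groups, gave FPKM values per the file headers, that is fragments scaled by transcript length and library size; the labels do not say how the size was set. Reads were single ends of 100 nt per the series' design text. Per the submitters' processing notes the tools were Cuffdiff 2.2.1, TopHat2 2.0.12, cutadapt 1.0 and bcl2fastq 1.8.4, with the build TAIR10. No counts were used, so depth is unknown and no count test was run. Of 33373 lines with an identifier, 176 lines of 88 repeated identifiers were left out, as were 693 lines without one.

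A gene was kept if 2 or more libraries reached 1 FPKM (20753 genes). Group means on log2(FPKM + 1) were fitted with limma 3.58.1 (R 4.3.3), using trend and robust moderation; p-values are 2-sided, adjusted by the Benjamini-Hochberg method over all genes tested, with a threshold of 0.05. Fold changes on this scale understate those of low genes. The repeats were compared in a model with genotype and treatment by repeat. A fit with the repeat number as a block was run beside it: the design text calls the repeats independent runs of the experiment, and libraries of the same number deviated together, with correlations of 0.568 to 0.805 over the 15 pairs of groups. The steps were tested on simulated data in which the libraries varied independently, with no effect of repeat, unlike the libraries here. The other settings tried were the pseudocount, the filter, the scaling, the moderation and leaving out each library.

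Names, positions and sequences came from the RefSeq annotation of TAIR10.1, with Python 3.11.15 and Biopython 1.88; protein identities are from global alignments of translated coding sequences. RefSeq gives no symbol for the IDA-like and PIP genes. The 9 members and the lists of other genes were chosen with earlier results of these data known, so the counts over them are descriptions. Of the lists, receptors of the peptides, genes past the test and the largest differences were named; RALF1, CNGC17 and HSL1 were named after their values with the block were seen.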

Additional observations from a re-analysis of the deposited data

Results flagged for a closer look

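The flg22 response differed between the repeats, in the test with the 3 genotypes as replicates, for IDL7 by 3.06 on the log2 scale, for AT4G37290 by 2.28 and for AT2G23270 by 2.55, each larger in repeat 2. In all 3 genes and all 3 genotypes the difference between flg22 and none was larger in repeat 2 than in repeat 1.

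PSK4 was set apart by direction: both OX9 pairs were lower with flg22 and both WT pairs higher. The difference of response, OX9 minus WT, was -0.82 and did not pass the test (adjusted p = 1).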

How the results depend on the processing

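The averaged flg22 count stayed at 5 of 9 under each pseudocount, filter, scaling and moderation tried, at 4 or 5 with 1 library left out, and was 8 with the replicate block and 8 with the block by treatment, whose error takes no account of differences in response between the repeats. In WT the count of 0 became 2 with the replicate block and 8 by treatment. In asr3-1 the count of 1 became 4 with the replicate block, 8 by treatment, 0 with the libraries of asr3-1 alone, 0 with a pseudocount of 5, 0 with no filter, and 0 to 1 with 1 library left out; in OX9 the count of 0 became 6 by treatment. Of all 20753 genes, the block by treatment called 1868 higher and 471 lower in WT, and 2011 and 698 in asr3-1. In OX9 it called 1470 higher and 413 lower, and in the averaged response 2892 and 2049. The block changed no call between lines. No averaged response of the 9 changed its sign. Quantile normalization moved the median of all genes in the averaged response to -0.133, against -0.028 as deposited, and turned OX9 minus WT with flg22 to 0.02307 for RALF33 and the repeat difference of PSK4 to -0.08074. With 1 library left out, so that an unequal mix of repeats was compared, OX9 minus WT with flg22 ranged from -2.283 to 0.0615 for IDL6 and from -0.4298 to 0.2309 for RALF33, and the repeat difference from -0.5932 to 0.1505 for PSK2 and from -0.07815 to 0.5236 for PSK4. The depth is unknown, so values near 0 FPKM carry no error of their own.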

Other observations

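The coding sequence that RefSeq annotates for IDL7 has 101 codons and none of them spell the serine, glycine, proline, serine motif printed for IDL6. A different frame on the same strand of the same transcript (chr3:3420466-3420759, TAIR10.1) has 97 codons, and 68 of its 294 bases lie within the annotated coding sequence. Its protein is 56.1% identical to that of IDL6 over their alignment, with 16 of the last 20 residues the same, while the annotated IDL7 protein is 16.5% identical to IDL6. In both IDL6 and this frame 5 codons follow the printed window with the motif. Which frame is translated was not tested. FPKM values count reads over the whole transcript and do not depend on the frame.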
